A study of Homo sapiens with 9 samples.

Results

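Expression of 10 genes of insulin receptor signalling and of the FOXO transcription factors was followed in H295R cells, which were derived from a human adrenocortical carcinoma and make adrenal steroids. The genes were the receptors INSR and IGF1R, the adaptors IRS1 and IRS2, the inhibitor PIK3IP1, the factors FOXO1, FOXO3 and FOXO4, and the nutrient-responsive genes KLF15 and TXNIP. These genes and the lists below were chosen by name with earlier results of these data known. Their shares beside those of all genes are therefore only descriptive. The array annotation assigns 12 of the 33297 probe sets to the 10 genes. Of the 18417 genes with a probe set of their own, all 10 were measured. After 24 h of growth, cells spent 48 h in growth medium (normal growth), in serum-free medium (starvation) or in serum-free medium with 10 mM metformin, a biguanide drug used in diabetes. Each group had 3 arrays, lettered A, B and C. The series describes 3 independent experiments without saying which arrays shared an experiment, so each p value reflects only how far these arrays spread. All groups were the same cell line with no genetic change, and no culture received metformin in growth medium. The growth medium held insulin, transferrin and selenium beside serum, and the starvation medium held neither the supplement nor serum, so the effects of losing insulin and of losing serum cannot be told apart. Every value below comes from total RNA of whole cultures, in which fewer cells of a kind and less RNA per cell cannot be told apart.

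Insulin binds INSR, and the insulin-like growth factors bind the related IGF1R. The activated receptors phosphorylate IRS1 and IRS2, which recruit phosphoinositide 3-kinase and so switch on the kinase AKT. AKT phosphorylates the FOXO factors and keeps them out of the nucleus, and when insulin is withdrawn they return to it and switch on genes of fasting, stress resistance and cell cycle arrest, INSR and IRS2 among them in several tissues.

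Expression is given as RMA values, the authors' deposited log2 expression values, so that a difference of 1 is a change of 2-fold. A change is called when its adjusted p from limma, adjusted over all probe sets, is under 0.05. Levels are not compared between genes, since probe sets differ in their response to the same amount of RNA. Array medians lay between 6.04 and 6.16, and arrays of 1 group correlated with r between 0.990 and 0.997. Of 10 adrenal cortex markers measured, 9 had all 3 group means above every array's median, the exception being MC2R. All 3 group means lay below every median for 7 of 10 fibroblast, 6 of 7 immune and 7 of 8 endothelial markers, while the fibroblast markers COL1A1, COL3A1 and FAP and the endothelial marker CLDN5 lay above. Over the arrays the mean of each list ranged from 9.96 to 10.28 for adrenal, 4.89 to 5.11 for fibroblast, 4.47 to 4.71 for immune and 4.68 to 4.95 for endothelial markers, and these means are not comparable between lists. None of the fibroblast, immune or endothelial markers was called in any comparison in limma. At an unadjusted p under 0.05, 1 fibroblast marker was found in starvation, 1 with metformin against starvation and 2 with metformin against normal growth. These are 10%, 10% and 20% of the fibroblast markers, beside 9.88%, 23.6% and 28.5% of all genes. FAP was found in all 3 comparisons, with log2 changes of -0.92, 0.55 and -0.36 in that order. The other marker against normal growth was COL1A1, at -0.27.

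The stretches before the start sites of the 3 of these genes with the largest differences between metformin and starvation, FOXO4, KLF15 and TXNIP, are shown here, because they are the regions where FOXO and nutrient-sensing factors are known to act. Each is the 250 bases upstream of the RefSeq start in GRCh38.p14, printed 5′ to 3′ on the gene's own strand. The FOXO4 stretch is chrX:71095601-71095850 on the plus strand, the KLF15 stretch chr3:126357409-126357658 on the minus strand and the TXNIP stretch chr1:145996580-145996829 on the minus strand, before the more upstream of 2 TXNIP starts. Capitals mark letters that match any of 5 motifs searched on both strands, namely the forkhead motif GTAAACA, the insulin response core CAAAACA, the E-box CACGTG, the CCAAT box and the composite site TGATGCAA of the stress factor ATF4.
FOXO4: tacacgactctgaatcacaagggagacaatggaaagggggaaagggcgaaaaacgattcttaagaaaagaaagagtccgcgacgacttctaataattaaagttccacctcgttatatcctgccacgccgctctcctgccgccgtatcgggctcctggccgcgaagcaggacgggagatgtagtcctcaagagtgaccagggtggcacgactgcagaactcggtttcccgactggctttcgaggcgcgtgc
KLF15: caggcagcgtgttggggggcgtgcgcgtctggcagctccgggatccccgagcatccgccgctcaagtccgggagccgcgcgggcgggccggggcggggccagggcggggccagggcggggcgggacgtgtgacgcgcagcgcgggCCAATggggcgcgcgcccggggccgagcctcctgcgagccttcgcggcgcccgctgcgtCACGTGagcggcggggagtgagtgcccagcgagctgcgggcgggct
TXNIP: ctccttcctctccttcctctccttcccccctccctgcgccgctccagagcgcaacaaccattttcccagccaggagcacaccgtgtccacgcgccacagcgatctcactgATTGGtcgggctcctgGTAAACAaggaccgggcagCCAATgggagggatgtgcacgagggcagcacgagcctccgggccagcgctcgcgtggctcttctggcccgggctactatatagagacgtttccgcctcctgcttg

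The TXNIP stretch holds the forkhead motif 124 to 118 bases before the start, and it lies between a CCAAT box on the other strand, 140 to 136 bases before the start, and a CCAAT box as printed, 105 to 101 bases before it. Of the 35116 stretches of this length in the RefSeq table, 2.98% hold that forkhead motif and 32% hold a CCAAT box. The KLF15 stretch has a G and C content of 80.4%, against 63.6% for TXNIP and 54.4% for FOXO4. It holds an E-box 46 to 41 bases before the start, as 6.34% of all stretches do, and a CCAAT box 105 to 101 bases before it. The FOXO4 stretch holds none of the 5 motifs. Over all starts of the 10 genes, 15 stretches, the forkhead motif was found for TXNIP alone, the insulin response core for IRS2 alone (4.3% of all stretches), the E-box for KLF15 alone and a CCAAT box for IRS2, FOXO1, KLF15 and TXNIP. The ATF4 composite, held by 0.772% of all stretches, was found for none. These matches describe letters and not binding. Only the exact letters were searched, so near forms of a motif, such as the cacgag in the TXNIP stretch, were not counted.

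Metformin in starved cells was accompanied by higher FOXO4 and KLF15. Both rose by about 1.5-fold, and none of the 10 genes fell by the test. TXNIP and IRS2 lay above the starved arrays on every metformin array without passing the test, and the brighter IGF1R probe set lay below them. The comparison of 3 metformin with 3 starved arrays asks what the drug adds where serum and insulin are already gone. Of the 10 genes, 2 were called, both higher, beside 6.03% of all genes called (3.14% higher and 2.89% lower). Groups did not overlap for 5 of the 10 genes, beside 30.9% of all genes, 4 of them above and 1 below. The median change of the 10 genes was 0.07 and that of all genes -0.03.

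FOXO4, the FOXO factor encoded on the X chromosome, had RMA values of 8.77, 8.86 and 8.79 on metformin arrays A, B and C. The starved arrays gave 8.21, 8.31 and 8.20, and normal growth gave 8.17, 8.26 and 8.22. Every metformin array lay above all 6 others, while the starved and normal arrays overlapped. The log2 change against starvation was 0.57 (SE 0.06, 95% confidence interval 0.42 to 0.72), a 1.48-fold higher level with adjusted p = 0.0165 from limma. Against normal growth the change was 0.59 (SE 0.05, adjusted p = 0.00583 from limma). FOXO4 had a smaller spread than KLF15 or TXNIP within the metformin group, with an SD of 0.05 (n = 3). Leaving out any starved array or metformin array A gave adjusted p values of 0.0606 to 0.107 from limma against starvation. In each of those fits 0 of all genes were called, so the loss was not particular to FOXO4. Against normal growth FOXO4 passed whichever single array was left out.

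KLF15, a Krüppel-like factor of fasting that controls amino acid breakdown and glucose production, had the widest range of group means of the 10 genes, 0.65. It was 7.41, 7.01 and 7.34 with metformin, 6.59, 6.63 and 6.71 in starvation and 6.54, 6.71 and 6.55 under normal growth. Metformin arrays again lay above all others, and array B was the lowest of the 3. The change against starvation was 0.61 (SE 0.12, 95% confidence interval 0.33 to 0.90), 1.53-fold, with adjusted p = 0.0465 from limma. Against normal growth it was 0.65 (SE 0.12, adjusted p = 0.0274 from limma), 1.57-fold. The call against starvation was lost without starved array A, B or C or metformin array A or C (adjusted p 0.0915 to 0.177 from limma), and that against normal growth without normal array A, B or C or metformin array A or C (0.0568 to 0.115). Of these fits against starvation, the one without metformin array C called 718 of all genes and the others 0. Those against normal growth called 360 to 2541 of all genes.

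TXNIP, which binds and inhibits thioredoxin, restrains glucose uptake and is a classical glucose-induced gene, was 11.91, 12.30 and 11.97 with metformin. In starvation it was 11.70, 11.78 and 11.66, and under normal growth 11.59, 11.76 and 11.60. The metformin arrays did not overlap with either group, but array B stood well above the other two. The difference from starvation, 0.34 (SE 0.11, 95% confidence interval 0.06 to 0.63), did not pass (adjusted p = 0.169 from limma), nor did that from normal growth, 0.41 (SE 0.12, adjusted p = 0.0967 from limma). Without metformin array B the difference from starvation was 0.22, smaller by more than 1.5 times. Metformin array B was thus the highest of its group for TXNIP and the lowest for KLF15.

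**Figure D1:**
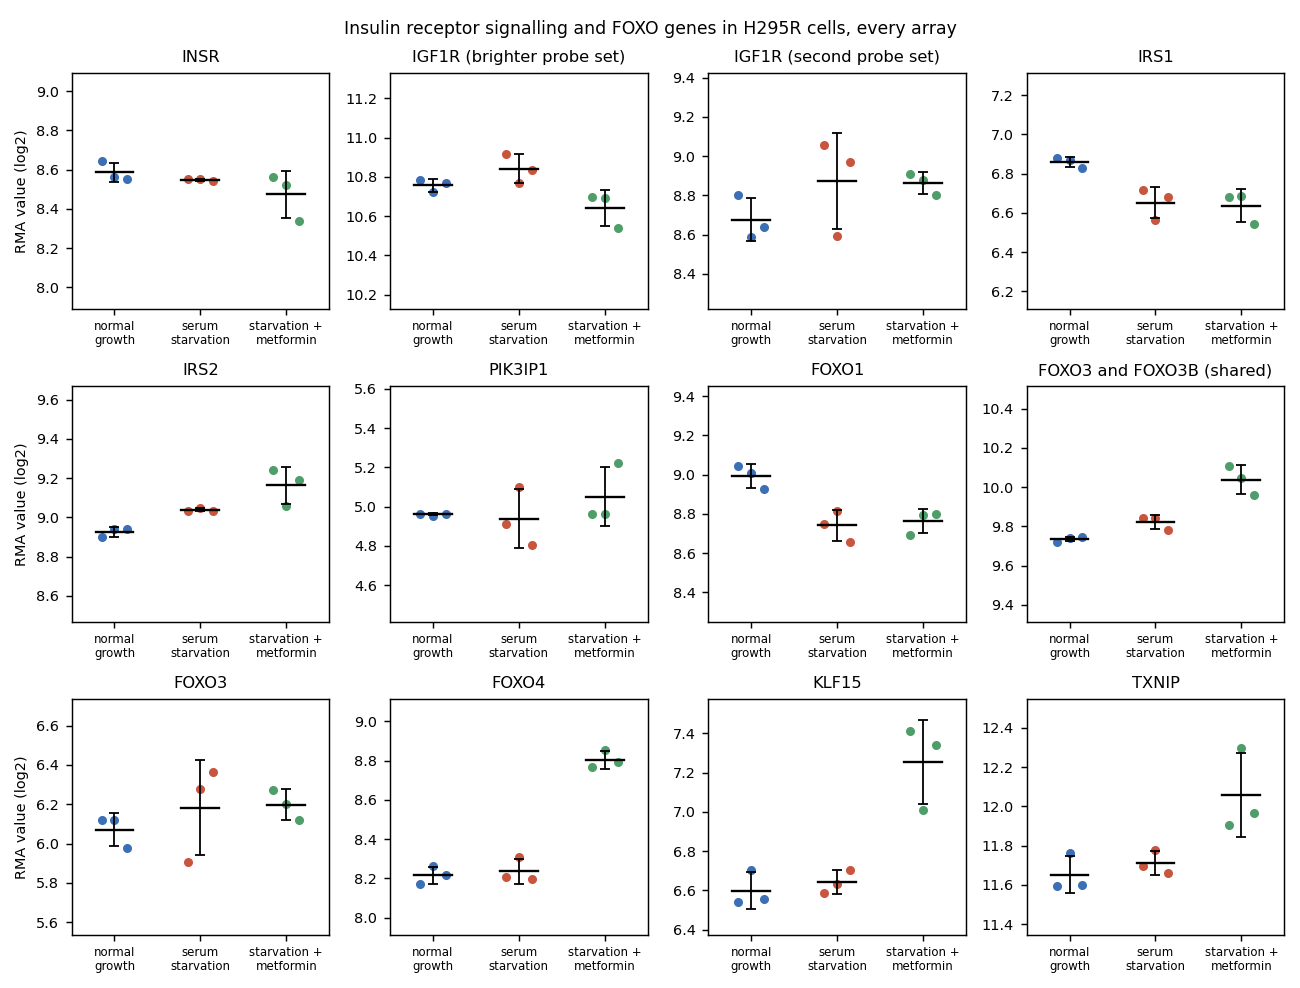
RMA values (log2, y axis) of the 12 probe sets on every array in normal growth, serum starvation and starvation with metformin (3 arrays each). Points are arrays in the order A, B, C, long bars are group means and whiskers 1 SD, and each panel spans 1.2 log2 units around its own values. The 3 metformin arrays of FOXO4, KLF15 and TXNIP lie above the 6 other arrays, and the starved arrays of FOXO1 and IRS1 lie below those of normal growth.

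FOXO1, the FOXO factor that drives glucose production in liver, was 9.04, 9.01 and 8.93 under normal growth, 8.75, 8.82 and 8.66 in starvation and 8.69, 8.79 and 8.80 with metformin. The starved and the metformin arrays both lay below all arrays of normal growth and overlapped with each other. Starved cells differed from normal growth by -0.25 (SE 0.06, 95% confidence interval -0.40 to -0.10), a difference that did not pass (adjusted p = 0.295 from limma). Metformin cells differed from starved cells by 0.02, with an interval of -0.14 to 0.18, and from normal growth by -0.23 (SE 0.06, adjusted p = 0.0714 from limma). The sign of that small difference from starvation turned with all arrays set to the same median (-0.0057).

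FOXO3, the FOXO factor linked to longevity, was measured by a probe set of its own and by another that it shares with the near-identical copy FOXO3B. The shared probe set gave 9.72, 9.74 and 9.75 under normal growth, 9.84, 9.84 and 9.78 in starvation and 10.11, 10.04 and 9.96 with metformin. The 3 groups followed each other without overlap. It was higher with metformin than under normal growth by 0.30 (SE 0.06, 1.23-fold, adjusted p = 0.0292 from limma), and the difference from starvation was 0.21 (SE 0.06, adjusted p = 0.124 from limma). Signals of FOXO3 and FOXO3B cannot be separated on these probes, so the rise cannot be assigned to FOXO3, and it is not counted among the 10 genes. The probe set of FOXO3 alone was dim, at 6.07 ± 0.08 (SD, n = 3) under normal growth, 6.18 ± 0.24 (SD, n = 3) in starvation and 6.20 ± 0.08 (SD, n = 3) with metformin, close to the array medians. Arrays A and B of normal growth had exactly the same value on it, as did starved arrays A and B on the shared probe set, so the SDs and SEs that rest on them may be too small. Its groups overlapped in every comparison, and its interval for metformin against starvation ran from -0.30 to 0.33.

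The adaptors IRS1 and IRS2 lay in opposite directions after starvation. IRS1, the main insulin adaptor of muscle and fat, was 6.88, 6.87 and 6.83 under normal growth, 6.71, 6.56 and 6.68 in starvation and 6.68, 6.69 and 6.54 with metformin. IRS2, the main insulin adaptor of liver and beta cells and a FOXO target there, was 8.90, 8.94 and 8.94 under normal growth, 9.03, 9.05 and 9.03 in starvation and 9.24, 9.06 and 9.19 with metformin. Starved arrays lay below normal growth for IRS1 and above it for IRS2, with no overlap in either case. The differences were -0.21 for IRS1 (SE 0.05, adjusted p = 0.351 from limma) and 0.11 for IRS2 (SE 0.04, adjusted p = 0.518 from limma), so neither passed. Between metformin and starvation IRS1 overlapped, with a difference of -0.02 (interval -0.19 to 0.16), while IRS2 was higher on every metformin array by a mean of 0.12 (SE 0.06, adjusted p = 0.361 from limma). From normal growth to starvation with metformin, IRS1 differed by -0.22 (SE 0.06, adjusted p = 0.0800 from limma) and IRS2 by 0.24 (SE 0.06, adjusted p = 0.0767 from limma).

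Neither receptor was called in any comparison. INSR was 8.64, 8.56 and 8.55 under normal growth, 8.55, 8.55 and 8.54 in starvation and 8.56, 8.52 and 8.34 with metformin. The groups overlapped in every comparison, with differences of -0.04 for starvation (interval -0.15 to 0.07), -0.07 for metformin against starvation (interval -0.26 to 0.11) and -0.11 for metformin against normal growth (interval -0.30 to 0.07). Starved arrays A and B had the same INSR value to the last digit, so the SD of 0.0062 in that group is no measure of biological spread. IGF1R has 2 probe sets. The brighter was 10.78, 10.72 and 10.77 under normal growth, 10.92, 10.77 and 10.83 in starvation and 10.70, 10.69 and 10.54 with metformin, below starvation on every array but with a difference that did not pass, -0.20 (SE 0.07, adjusted p = 0.205 from limma). The second IGF1R probe set was 8.80, 8.59 and 8.64 under normal growth, 9.06, 8.59 and 8.97 in starvation and 8.91, 8.88 and 8.80 with metformin. The probe sets disagreed in sign for metformin against normal growth, with -0.12 on the brighter and 0.19 on the second, and neither difference passed (adjusted p 0.346 and 0.195 from limma).

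PIK3IP1, a membrane protein that inhibits phosphoinositide 3-kinase and is itself a FOXO target in some cells, had a dim probe set. Its values were 4.96, 4.95 and 4.96 under normal growth, 4.91, 5.10 and 4.81 in starvation and 4.96, 4.96 and 5.22 with metformin, below every array's median. The groups overlapped in every comparison, and background can make a change of so dim a probe set too small. The difference was -0.02 for starvation (interval -0.22 to 0.18) and 0.11 for metformin against starvation (interval -0.16 to 0.38).

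In the comparison of starvation with normal growth, which asks how the cells responded to the loss of serum and insulin, 0 of the 10 genes were called by limma, beside 0.228% of all genes (0.0652% higher and 0.163% lower). Before adjustment limma gave 3 under 0.05, namely FOXO1 and IRS1 lower and IRS2 higher, beside 9.88% of all genes, and without limma's moderation the count after adjustment was also 0. The same 3 genes were those whose groups did not overlap, beside 16.5% of all genes. With 3 arrays against 3, a two-sided exact permutation test cannot go below p = 0.1. For FOXO4, KLF15 and TXNIP the differences in starvation were 0.02, 0.04 and 0.06, with upper limits of 0.15, 0.20 and 0.22.

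In the comparison of starvation with metformin with normal growth, the same 2 genes, FOXO4 and KLF15, were called, both higher, beside 12.5% of all genes (6.16% higher and 6.36% lower). Before adjustment 6 had p under 0.05, which added TXNIP and IRS2 above and FOXO1 and IRS1 below normal growth, beside 28.5% of all genes. Groups did not overlap for 7 of the 10 genes, beside 35.8% of all genes. The median change was 0.11 for the 10 genes and -0.02 for all genes. This comparison shares its metformin arrays with the comparison against starvation, so the repeated calls are not independent. No gene of the 10 reached 2-fold in any comparison, beside 0.038% of all genes called at that size in starvation, 0.407% with metformin against starvation and 0.706% with metformin against normal growth.

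**Figure D2:**
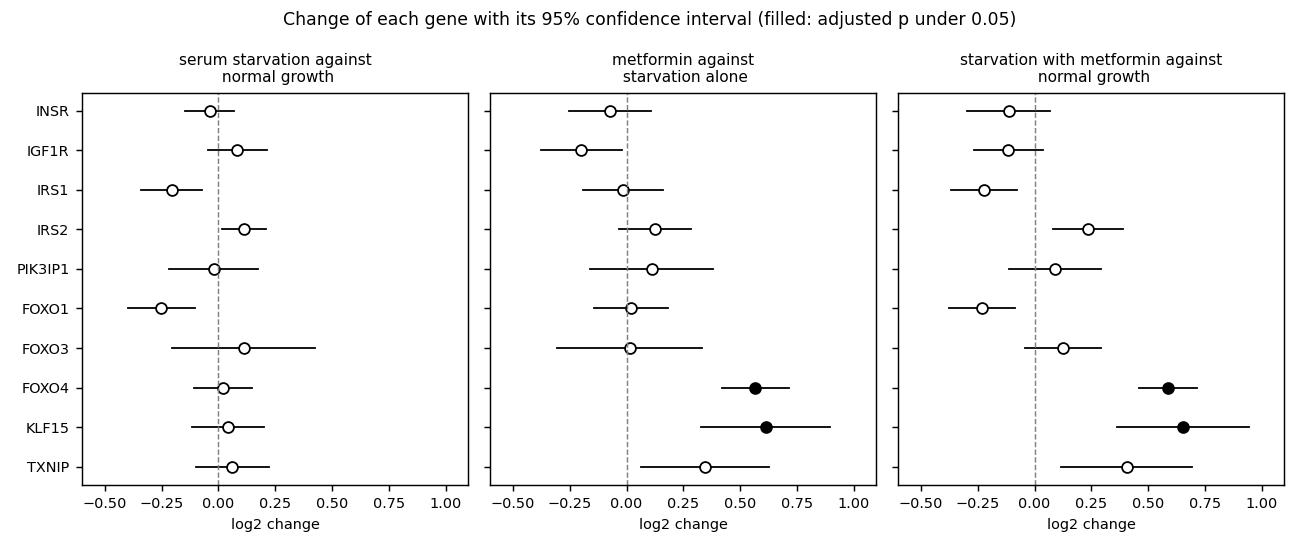
Log2 change (x axis) of each of the 10 genes in the 3 comparisons, with the brighter probe set used for IGF1R and the probe set of FOXO3 alone. Points are limma estimates from 6 arrays, lines are 95% confidence intervals and filled points have an adjusted p under 0.05. FOXO4 at 0.57 and KLF15 at 0.61 against starvation are filled, and so are FOXO4 at 0.59 and KLF15 at 0.65 against normal growth.

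The other genes of the pathway were listed by role, with 80 of 87 measured by a probe set of their own. In starvation limma called 0 of the 80, beside 0.228% of all genes. With p left unadjusted, 4 were higher and 8 lower (12 under 0.05, or 15%, beside 9.88% of all genes). Metformin against starvation gave 5 calls, 4 higher and 1 lower, which is 6.25% beside 6.03% of all genes. Starvation with metformin against normal growth gave 19, 14 higher and 5 lower, or 23.8% beside 12.5% of all genes.

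The signal chain was listed from the receptor INSRR to AKT and to genes beside or beyond it, such as SGK1 and GSK3B. Of this list 24 genes were measured, and limma called 0 in starvation and 0 with metformin against starvation (2 and 7 at an unadjusted p under 0.05, or 8.33% and 29.2%, beside 9.88% and 23.6% of all genes). Against normal growth, metformin cells had 3 higher and 2 lower, or 20.8% beside 12.5% of all genes. PIK3CB, a catalytic subunit of phosphoinositide 3-kinase, rose by 0.39 (adjusted p = 0.0193 from limma), and PIK3C2A, a class II enzyme of the same family, and SOS1, the exchange factor that links receptors to RAS, each rose by 0.33. AKT2, the AKT form of insulin-responsive tissues, was 10.67, 10.66 and 10.64 under normal growth and 10.43, 10.48 and 10.46 with metformin, and it fell by 0.20 (adjusted p = 0.0490 from limma). SGK1, a kinase related to AKT and induced by glucocorticoids and serum, fell by 0.47 (adjusted p = 0.0313 from limma). It was 8.45, 8.38 and 8.47 under normal growth, 8.16, 7.99 and 8.16 in starvation and 8.09, 7.79 and 8.01 with metformin. The starved SGK1 arrays already lay below all arrays of normal growth, by a mean of -0.33 that did not pass (adjusted p = 0.192 from limma).

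Of 15 measured genes listed as brakes of the insulin signal, 1 rose with metformin against starvation (6.67%, beside 3.14% of all genes called higher and 6.03% called in either direction) and 5 rose against normal growth (33.3%, beside 6.16% higher and 12.5% in either direction). None was called lower, and the median changes of the list were 0.13 and 0.15. The genes, PTPN11 among them, were listed by name, and whether each acts as a brake in these cells was not tested. ENPP1, a membrane enzyme that inhibits the insulin receptor, was 9.92, 9.90 and 9.92 under normal growth, 9.75, 9.48 and 9.73 in starvation and 10.38, 10.47 and 10.24 with metformin. Its starved arrays lay below normal growth and its metformin arrays above it. It rose by 0.71 against starvation (SE 0.10, 1.64-fold, adjusted p = 0.0253 from limma) and by 0.45 against normal growth (adjusted p = 0.0183 from limma). TRIB3, a pseudokinase that binds AKT and a target of the stress factors ATF4 and DDIT3, was 10.01, 8.82 and 9.99 with metformin, where starvation gave 8.03, 7.86 and 7.996 and normal growth 8.04, 7.92 and 7.98. Metformin array B was lower than A and C by more than 1 log2 unit. TRIB3 rose 3.09-fold against normal growth, by 1.63 on the log2 scale (SE 0.32, adjusted p = 0.0358 from limma), and its difference of 1.65 from starvation narrowly missed the threshold (SE 0.33, adjusted p = 0.0533 from limma). The receptor phosphatase PTPRF (0.32), the lipid phosphatase INPPL1 (0.32) and the ubiquitin ligase CBLB (0.31) were also called higher against normal growth.

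Of 14 regulators of FOXO, 1 was called with metformin against starvation (7.14%, beside 6.03% of all genes) and 2 against normal growth (14.3%, beside 12.5%), shares near those of all genes. YWHAB and YWHAH encode 14-3-3 proteins, which bind phosphorylated FOXO factors and hold them in the cytoplasm. YWHAB was 11.56, 11.57 and 11.60 with metformin, 11.90, 11.81 and 11.89 in starvation and 11.84, 11.80 and 11.88 under normal growth. It fell by 0.29 against starvation (adjusted p = 0.0454 from limma) and by 0.26 against normal growth (adjusted p = 0.0290 from limma). YWHAH fell by 0.30 against normal growth (adjusted p = 0.0262 from limma), and its difference from starvation was -0.14. The medians of the list were -0.06 and -0.09.

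Of 27 FOXO targets besides the 10 genes, 3 were called with metformin against starvation, all higher (11.1%, beside 6.03% of all genes called and 3.14% called higher). Against normal growth 6 were called higher and 1 lower (25.9%, beside 12.5% of all genes). TRIB1, a pseudokinase, rose by 0.78 against starvation (adjusted p = 0.0494 from limma), MXI1, an antagonist of MYC, by 0.50 (adjusted p = 0.0240 from limma) and SOD2, the mitochondrial superoxide dismutase, by 0.37 (adjusted p = 0.0331 from limma). MXI1 was 7.89, 7.73 and 7.76 with metformin, 7.24, 7.32 and 7.32 in starvation and 7.01, 7.31 and 7.06 under normal growth. Against normal growth these 3 were joined by FBXO32, a ubiquitin ligase of muscle wasting (0.55), PDK4, a kinase that spares glucose in fasting (0.30), and PINK1, a kinase of mitochondrial quality control (0.28), while the transcriptional regulator CITED2 fell by 0.26. Each of these values has an adjusted p under 0.05 from limma. The classical liver target IGFBP1 was 6.78 on average under normal growth, 6.84 in starvation and 6.75 with metformin, with differences of 0.06 and -0.08 that did not pass. In starvation the widest difference among these targets was that of TNFSF10, the death ligand TRAIL, chosen here after its values were seen, at -0.69 (SE 0.09, adjusted p = 0.0749 from limma).

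**Figure D3:**
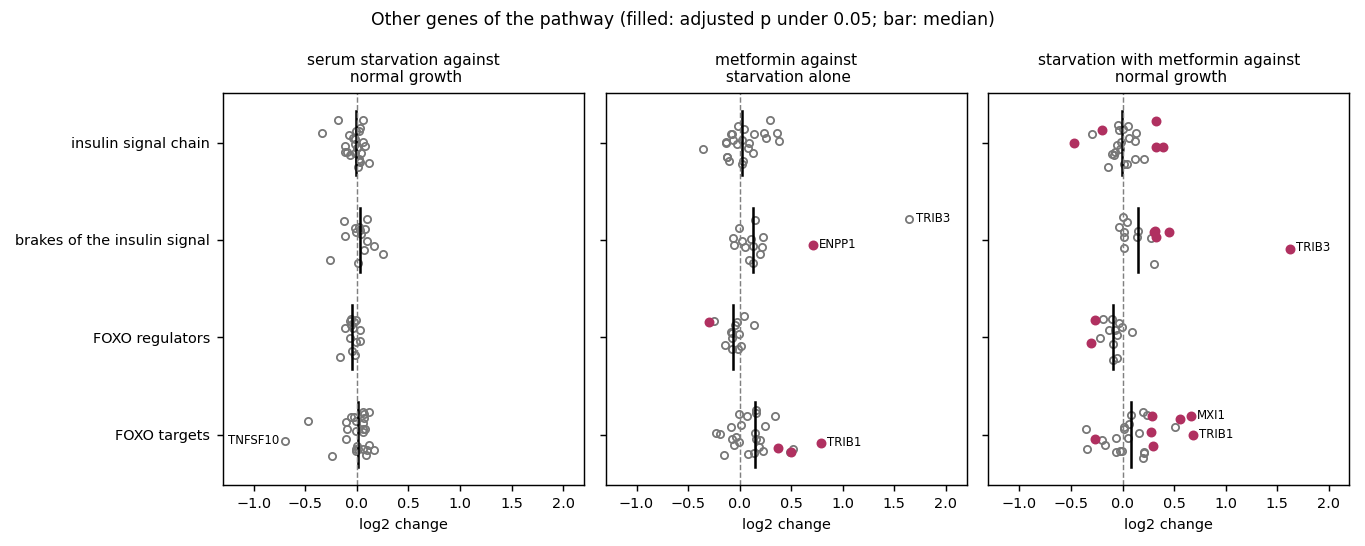
Log2 change (x axis) of each of the 80 other pathway genes in the 3 comparisons, by role (rows). Points are genes, filled where the adjusted p is under 0.05, vertical bars are the medians of the lists, and genes with a change of at least 0.6 are named. TRIB3 stands apart at 1.65 against starvation, where it is not filled, and 1.63 against normal growth, where it is.

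Genes close to TXNIP and KLF15 in function were described in the same way. Of 11 thioredoxin and alpha-arrestin genes, limma called 0 in starvation and 0 with metformin against starvation, while 2 and 3 had p under 0.05 before adjustment (18.2% and 27.3%, beside 9.88% and 23.6% of all genes). Against normal growth 3 were called (27.3%, beside 12.5% of all genes). TXN, the thioredoxin that TXNIP binds, rose by 0.62 (adjusted p = 0.0112 from limma), TXNRD1, which reduces it, rose by 0.62 (adjusted p = 0.0241 from limma), and the mitochondrial reductase TXNRD2 fell by 0.32 (adjusted p = 0.0187 from limma). TXN was 11.09, 11.04 and 11.05 with metformin, 10.67, 10.40 and 10.69 in starvation and 10.57, 10.31 and 10.44 under normal growth. With metformin against starvation, TXN differed by 0.47 (adjusted p = 0.0520 from limma) and TXNRD1 by 0.58 (adjusted p = 0.0651 from limma). TXNRD2 differed there by -0.20 (adjusted p = 0.103 from limma), and none of these differences passed. ARRDC4, the closest relative of TXNIP and like it a target of the glucose-sensing factor MLXIPL, differed by -0.27 in starvation (adjusted p = 0.127 from limma) and by 0.24 with metformin against starvation (adjusted p = 0.316 from limma). Among the 15 other Krüppel-like factors, KLF10, an early response gene of TGF-beta, was the only call in the 3 comparisons, with a change of -0.41 with metformin against normal growth (adjusted p = 0.0455 from limma). That is 6.67% of these factors, beside 12.5% of all genes. In the other comparisons 0 were called, beside 0.228% of all genes in starvation and 6.03% with metformin against starvation.

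KLF15 is also a glucocorticoid target in many tissues, and H295R cells make glucocorticoids, so 10 other glucocorticoid-induced genes were listed, of which 9 were measured. PER1, a clock gene, rose by 0.46 with metformin against starvation (adjusted p = 0.0303 from limma) and by 0.25 against normal growth (adjusted p = 0.0452 from limma), SGK1 fell as given above, and the other 7 were not called. That is 1 call against starvation (11.1%, beside 6.03% of all genes). Against normal growth there were 2, 1 higher and 1 lower (22.2%, beside 12.5%). In starvation limma called 0, beside 0.228% of all genes, while 4 were lower at an unadjusted p under 0.05 (44.4%, beside 9.88%). At that level metformin against normal growth gave 1 higher and 3 lower (44.4%, beside 28.5%). The glucocorticoid target TSC22D3 differed by -0.08 between metformin and starvation. Some adrenal markers moved alongside the rise of FOXO4 and KLF15, and their part in it was not tested. Of 10 measured, limma called 1 higher and 2 lower with metformin against starvation (30%, beside 6.03% of all genes). Against normal growth it called 1 higher and 4 lower (50%, beside 12.5%). In starvation 0 were called, beside 0.228% of all genes, while 7 were lower at an unadjusted p under 0.05 (70%, beside 9.88%). With metformin against starvation, the steroid sulfotransferase SULT2A1 fell by 0.82 (adjusted p = 0.0145 from limma), the adrenal transcription factor NR5A1 fell by 0.46 (adjusted p = 0.0196 from limma) and the corticotropin receptor MC2R, a dim probe set at 5.32 in starvation, rose by 1.02 (adjusted p = 0.0389 from limma). Against normal growth, SULT2A1 differed by -1.19, NR5A1 by -0.57, the inhibin subunit INHA by -0.55, the lipoprotein receptor SCARB1 by -0.31 and MC2R by 1.20, all called by limma. The other markers, STAR, CYP11A1, CYP17A1, FDX1 and DLK1, were not called in any comparison. With metformin against starvation they differed by 0.45, -0.26, -0.07, 0.09 and 0.08 in that order.

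The genes whose pattern over the 9 arrays was most like that of KLF15 were searched among the 161 genes whose group means span at least 1 on the log2 scale. The 5 with the highest Pearson correlation were DDIT3 (r = 0.988), a transcription factor of endoplasmic reticulum and amino acid stress, PCK2 (0.986), the mitochondrial phosphoenolpyruvate carboxykinase, GDF15 (0.979), a secreted stress hormone, TRIB3 (0.976) and SPINK7 (0.973), a protease inhibitor. These correlations describe 9 arrays that share 3 groups and rest mainly on the step between the metformin arrays and the rest. Within the metformin group, array B was the lowest for KLF15 and for each of the 5, an order that the choice of genes by their correlation over these arrays favours. DDIT3 was 10.80, 9.70 and 10.75, GDF15 8.49, 7.17 and 8.61, and PCK2 9.18, 8.72 and 9.26. FOXO4 did not share this order, since metformin array B was its highest at 8.86, and the same array was the highest for TXNIP.

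**Figure D4:**
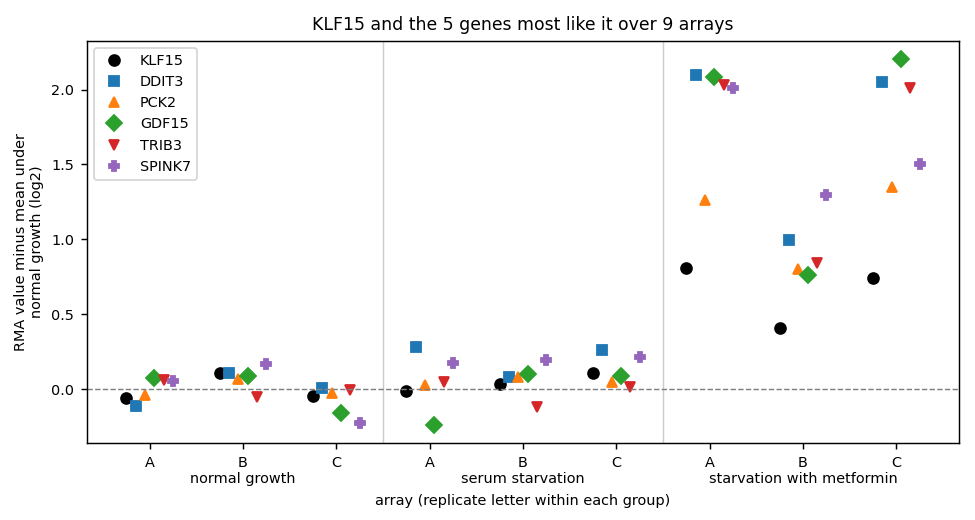
RMA value minus the gene's own mean under normal growth (log2, y axis) for KLF15 and the 5 genes most like it on each of the 9 arrays (x axis, letters within each group). Points are single arrays, shifted sideways so that they can be told apart. All 6 genes are highest with metformin, and metformin array B lies below arrays A and C for each of them.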

How the data were processed

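RNA of H295R cells was hybridized to 9 GeneChip Human Gene 1.0 ST arrays, 3 per group, with groups taken from the sample labels. The values were deposited by the authors on the log2 scale, 1 column per array, after RMA (background correction, quantile normalization over the arrays, median polish per probe set). Affymetrix Expression Console, RMA and limma are listed in the submitters' processing notes, Affymetrix Power Tools in the methods, all with versions not given in the sources. Quantile normalization removes any change shared by most genes. The number of arrays limits the precision.

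Of the probe sets, 19460 carry 1 symbol in the annotation, 1754 carry several and 12083 carry no symbol. The 18417 genes with a probe set of 1 symbol were named, and the brightest such probe set stood for its gene. Groups were compared in pairs on their 6 arrays, with no block, by limma 3.58.1 (lmFit, then eBayes; R 4.3.3), and all 33297 p values of a fit were adjusted together after Benjamini and Hochberg. Intervals are 95% confidence intervals from limma. The script was tested on simulated data with known changes. The 3 comparisons share arrays. The 10 genes and the lists were chosen with earlier results of these data known. All 10 are named, with up to 8 called genes of each list, those with the largest change first, and the 5 genes most like the one with the widest range of group means. IGFBP1, TNFSF10, ARRDC4, TSC22D3, FAP, STAR, CYP11A1, CYP17A1, FDX1 and DLK1 were named outside this rule after their values were seen. Promoter stretches came from a RefSeq table, in which motifs were searched on both strands.

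Tried as alternatives were 1 fit over the 9 arrays, scaling (a common median, or a repeat of quantile normalization), filters (probe sets above the 40th percentile of mean signal, or those with 1 symbol), averaging a gene's probe sets, eBayes with trend and robust options, Student's test (named in the general statistics of the methods, not for the arrays), the replicate letter as a block, and the omission of each array.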

Additional observations from a re-analysis of the deposited data

How the results depend on the processing

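FOXO4 and KLF15 kept their direction under all 15 alternatives in both metformin comparisons. Against starvation FOXO4 passed in 10 of 15 (adjusted p 0.0013 to 0.113) and KLF15 in 7 of 15 (0.0104 to 0.177). Against normal growth FOXO4 passed in 14 of 15 (0.000643 to 0.0607) and KLF15 in 8 of 15 (0.00592 to 0.115). TXNIP passed in 0 of 15 against starvation (0.0801 to 0.386) and in 3 of 15 against normal growth (0.0396 to 0.268).

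The counts moved more than the changes. Of the 10 genes, metformin against starvation gave 1 with arrays shifted to a common median, 1 by the t-test and 0 to 2 without a single array. Metformin against normal growth gave 5 with all 9 arrays in 1 fit, 6 without dim probe sets, 6 with only probe sets of 1 symbol, 4 with trend and robust eBayes, 1 by the t-test and 1 to 2 without a single array. Calls over all genes moved as well, from 2306 in the main fit to 3218, 3284, 3371, 2958 and 1132 in that order. Without a single array they were 360 to 2541. IRS2 and FOXO1 were each called there in 4 of 15 alternatives and IRS1 in 2. Of the 80 pathway genes, starvation gave 1 after quantile normalization again and 2 each without dim probe sets, with only probe sets of 1 symbol and with trend and robust eBayes, and metformin against starvation gave 13, 1, 13, 9, 9 and 1 with all 9 arrays, the common median, without dim probe sets, with 1 symbol, with trend and robust eBayes and by the t-test, and 0 to 3 without a single array. Metformin against normal growth gave 8 by the t-test and 0 to 17 without a single array. For starvation, all genes gave 42 calls in the main fit, and 48, 126, 154 and 112 in the settings named for it. For metformin against starvation they gave 1111, and 2505, 490, 1971, 1942, 1793 and 508 in the order above. Without a single array that comparison gave 0 to 718. Over all genes, the calls for metformin against starvation were 579 higher and 532 lower, but 226 higher and 264 lower with the common median, 673 and 756 after quantile normalization again and 244 and 264 by the t-test. In starvation 12 higher and 30 lower became 3 and 20 with the common median. The cause was not tested.

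The letters A, B and C were not shown to pair the arrays. Deviations from the group means correlated between -0.249 and 0.2945 for the same letter and between -0.3831 and 0.4403 for different letters. In starvation against normal growth the same-letter values were 0.0903, 0.1337 and 0.024, and the different-letter values ran from -0.1101 to 0.0395. With the letter as a replicate block, 0 of the 10 genes and 0 of the 80 pathway genes were called in any comparison, as were 0 of all genes. The block leaves fewer degrees of freedom.

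Signs turned only for differences that were not called. Metformin against starvation gave FOXO1 -0.0057 with the common median and -0.0058 after quantile normalization again, and FOXO3 -0.0113 and -0.0152. The mean of both IGF1R probe sets gave 0.036 for metformin against normal growth. Without a single array, PIK3IP1 and FOXO4 in starvation ranged from -0.1018 to 0.0455 and from -0.0158 to 0.043, and IRS1, FOXO1 and FOXO3 in metformin against starvation from -0.0601 to 0.032, -0.0212 to 0.0574 and -0.1238 to 0.106. PIK3IP1 has no value once dim probe sets are left out.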
